A study of Mus musculus with 12 samples.

Results

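The Tcf/Lef family and its coactivator beta-catenin were followed through mouse small-intestinal epithelium by the rows of 5 gene symbols, Tcf7, Tcf7l1, Tcf7l2, Lef1 and Ctnnb1, in RNA-seq counts of 23366 gene entries. On GRCm38 (GENCODE M21) the genes lie at chr11:52252371-52283014 (Tcf7), chr6:72626378-72789254 (Tcf7l1), chr19:55741820-55933654 (Tcf7l2), chr3:131110471-131224356 (Lef1) and chr9:120929216-120960507 (Ctnnb1). All 5 symbols were found in each of 12 libraries and all 5 passed the filter on low counts, which left 15342 genes. The libraries form 4 groups of 3. E12.5 and E14.5 are embryonic cells of those days, sorted as EpCAM-positive, CD31-negative, CD45-negative and DAPI-negative. The E12.5 libraries came from pools of 20 embryos, and the E14.5 pool size is not given in the sources used here. ISC are adult crypt cells sorted for high Lgr5-EGFP. AE are adult villus cells that the labels call enterocytes, gated on the surface antigens used for embryos, so other villus epithelial types could pass that gate. Adult mice were male, at postnatal day 60 and 1 gut per library, and ISC and AE donors alike carried the Lgr5EGFP-Cre-ERT allele. All groups have the mixed C57BL/6 CD1 background and no treatment is named. In the 6 embryonic libraries title and age label contradict each other on the stage, and the stage in the title was used.

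Tcf/Lef proteins are DNA-binding factors with an HMG box that sit on Wnt-responsive genes. Without a Wnt signal they hold Groucho/TLE corepressors there, and a destruction complex built on Apc and Axin marks beta-catenin for breakdown. With a signal beta-catenin enters the nucleus, binds Tcf/Lef and recruits coactivators such as Bcl9 and Pygo proteins. Tcf7l2 is the family member known to be needed for crypt stem cells of the intestine, Tcf7l1 acts mainly as a repressor, and Tcf7 and Lef1 are often Wnt targets themselves and are best known from T cells. Older texts call Tcf7l1 "Tcf3" and Tcf7l2 "Tcf4", but those symbols have rows of their own in the files, for unrelated E proteins, and are not counted here.

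Total gene counts per library ran from 12.6 to 45.2 in units of 1000000. Epcam stood at 429 CPM or more in each library, Lgr5 averaged 508 CPM in ISC against 23.3 to 81.8 in the other groups, and 12 enterocyte markers summed to 34263 to 75301 CPM in AE against 1087 to 2152 in ISC. In AE, 9 goblet markers summed to 19455 to 32773 CPM and 13 enteroendocrine markers to 1632 to 2278. Over all libraries 13 epithelial markers summed to 2059 CPM or more, 9 endothelial markers to 7.87 or less and 11 markers of enteric neurons and glia to 29.0 or less. Mesenchyme and smooth-muscle markers, 21 in number and taken up below, summed to 1660 to 1884 CPM in E12.5, mostly through Fn1. They summed to 602 to 732 CPM in E14.5 and to 54.7 or less in ISC and AE. CPM are counts per 1000000 after trimmed-mean scaling. The files count multiply aligned reads for E12.5 and for ISC, whereas each E14.5 or AE library lists them at 0. Any contrast of 1 of the first groups with 1 of the latter crosses that split, and whatever follows it cannot be told apart from the group there. The contrast of ISC with E12.5 and that of AE with E14.5 do not cross it.

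The 4 Tcf/Lef genes took separate courses. Tcf7l1 was abundant in the embryo and nearly absent from both adult groups. Tcf7l2 stayed between 126 and 224 CPM in all 12 libraries. Tcf7 and Lef1 had their highest means in ISC, then E12.5, with AE and E14.5 below. Ctnnb1 exceeded each of them at 696 to 1052 CPM and moved by less than 1.5-fold in every comparison made.

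**Figure D1:**
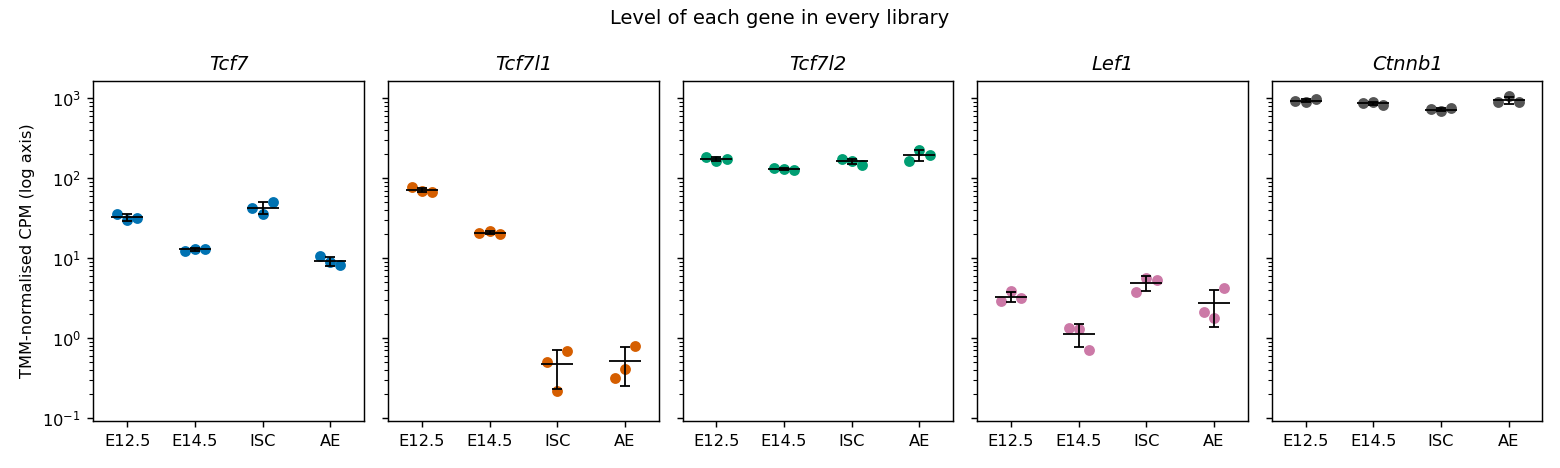
TMM-normalised CPM (log axis) of each gene in every library, with 3 points per group (E12.5, E14.5, ISC, AE) and the mean with its SD in black. Tcf7l1 falls from 71.1 CPM in E12.5 to 0.508 CPM in AE, while Tcf7l2 stays between 126 and 224 CPM.

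By edgeR's quasi-likelihood test with Benjamini-Hochberg adjustment, 4 of 5 genes were called lower in E14.5 than in E12.5 (adjusted p under 0.05) and 0 higher, where 25.6% of all genes tested were called lower and 49.2% were called in either direction. In ISC against E14.5, 3 were called higher and 2 lower, against backgrounds of 30.2% and 30.6%, or 60.7% either way. In AE against ISC, 2 were called each way, against 32.6% higher and 35.2% lower, or 67.8% either way. In ISC against E12.5, 1 was higher and 2 were lower, where 33.9% of all genes were called higher and 34.6% lower, or 68.5% either way. In AE against E14.5, 2 were called each way, against 36.7% higher and 41.5% lower, or 78.2% either way. In AE against E12.5, 0 were higher and 2 lower, against 38.4% higher and 43.7% lower, or 82.1% either way. The step from ISC to AE minus the step from E12.5 to E14.5 was called for 4 of the 5 genes, 3 positive and 1 negative, against 25.2% and 29.4% of all genes, or 54.6% either way. Calls were common in every comparison, and with 5 genes these counts are a description that shows nothing particular to the family. Groups without overlap, given below for single genes, were also common. They made up 66.3% (AE against ISC) to 82.5% (AE against E12.5) of all genes tested. The genes differed more in the size of the change.

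**Figure D2:**
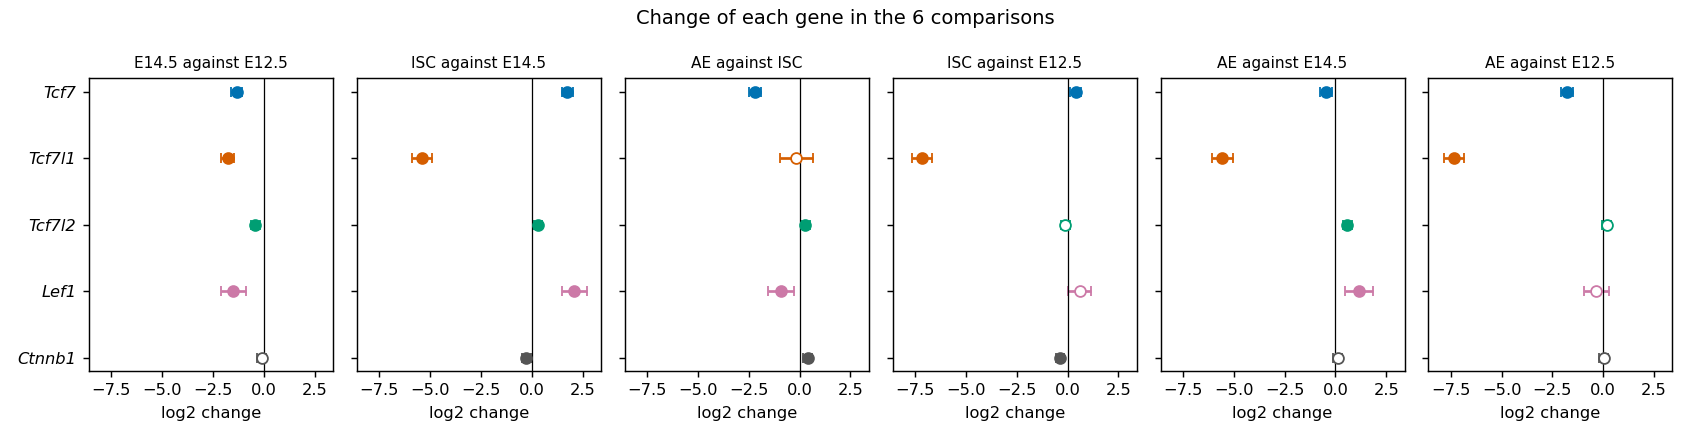
Fitted log2 change of each gene in the 6 comparisons, with bars spanning the normal 95% interval. Filled points passed an adjusted p of 0.05 and open points did not. Tcf7l1 lies between -5.39 and -7.34 in the 4 comparisons of an adult with an embryonic group, far left of the other genes.

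Tcf7l1 encodes the member that mostly represses Wnt targets. It stood at 76.7, 69.0 and 67.8 CPM in E12.5 replicates 1, 2 and 3 and at 20.6, 21.6 and 19.9 CPM in E14.5. In ISC the values were 0.507, 0.218 and 0.696 CPM, and in AE they were 0.315, 0.408 and 0.799 CPM. The embryonic groups lie apart from each other and far above both adult groups, whose values overlap. From E12.5 to E14.5 the log2 change was -1.78 ± 0.17 (SE, adjusted p = 1.44e-06), a 3.44-fold fall. From E14.5 to ISC it was -5.39 ± 0.25 (adjusted p = 3.05e-10), or 42.1-fold. Within the split of multiply aligned reads, Tcf7l1 was lower in ISC than in E12.5 (log2 change -7.18 ± 0.25, adjusted p = 9.93e-12) and 47.1-fold lower in AE than in E14.5 (-5.56 ± 0.27, adjusted p = 2.42e-10). Its log2 change in ISC against E12.5 had rank 533 from the most negative of 15342 genes. The adult levels rest on 28 counts over the ISC libraries and 21 over the AE libraries, against 5791 in E12.5. ISC and AE did not differ detectably at this depth (log2 change -0.16, interval -0.97 to 0.64, adjusted p = 0.748), the unfitted means differ the other way (0.474 and 0.508 CPM), and the fitted sign turned without ISC replicate 3 (0.33) or AE replicate 1 (0.23).

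Markers of other cells moved with Tcf7l1 in part. The 21 matched mesenchyme and smooth-muscle markers summed per library to 1660 to 1884 CPM (E12.5), 602 to 732 (E14.5), 12.1 to 13.5 (ISC) and 40.6 to 54.7 (AE), with Col6a1, Des, Lum, Twist1 and Foxl1 at 0 in ISC. Fn1, a fibronectin gene, carried the E12.5 sum at 1568 CPM on average (range 1482 to 1668) and stood at 285 CPM in E14.5, so the fall of the sum is not that of the list. Of the 19 tested, 17 rose and 2 fell from E12.5 to E14.5, and 18 fell from E14.5 to ISC. Col1a1, a collagen gene of fibroblasts, was at 2.20 CPM in E12.5 and 23.6 CPM in E14.5, against the direction of Tcf7l1, and Vim fell from 160 to 72.6 CPM, in its direction. The part of such cells in the level of Tcf7l1 was not tested, and in sorted bulk samples fewer cells of a type and less RNA per cell cannot be told apart.

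The promoter windows of Tcf7l1, the gene that fell to a few counts, and of Tcf7l2, the gene that stayed, are shown for comparison from 250 bases before to 50 after the RefSeq start on GRCm38.p6. The capitals mark CG dinucleotides, the sites of DNA methylation and the feature of CpG islands, and each strand is read in the direction of its gene, at chr6:72788996-72789295 (minus strand) for Tcf7l1 and chr19:55741560-55741859 (plus strand) for Tcf7l2.
Tcf7l1: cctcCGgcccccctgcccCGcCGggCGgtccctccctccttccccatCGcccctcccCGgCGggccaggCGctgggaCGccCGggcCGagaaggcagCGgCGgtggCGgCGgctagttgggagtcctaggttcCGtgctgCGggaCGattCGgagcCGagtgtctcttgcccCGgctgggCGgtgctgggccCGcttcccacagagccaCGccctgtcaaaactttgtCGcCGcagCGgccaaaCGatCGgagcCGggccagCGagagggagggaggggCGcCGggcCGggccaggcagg
Tcf7l2: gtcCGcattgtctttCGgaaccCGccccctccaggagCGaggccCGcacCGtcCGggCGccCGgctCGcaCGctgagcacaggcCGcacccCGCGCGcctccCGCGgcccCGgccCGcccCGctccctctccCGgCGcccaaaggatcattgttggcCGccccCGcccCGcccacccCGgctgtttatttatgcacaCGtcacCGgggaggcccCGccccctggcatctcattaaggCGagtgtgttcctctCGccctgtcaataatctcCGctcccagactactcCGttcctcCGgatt

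Each of these windows holds 34 CG dinucleotides in 300 bases, more than 92.3% of the 32851 windows of the RefSeq table, whose median is 7. Base composition is 75.3% G and C for Tcf7l1 and 70.0% for Tcf7l2, against a median of 52.7%. The first windows of Ctnnb1, Tcf7 and Lef1 hold 46, 45 and 18. The Tcf/Lef letters CTTTGAT and CTTTGAA were searched on both strands (as ATCAAAG and TTCAAAG on the other) and were in 0 of the 11 windows of the 5 genes, where 8.65% of all windows hold at least 1. No match says only that these letters are not in these windows.

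Tcf7l2 encodes the main Tcf factor of adult crypts. Its values were 185, 166 and 172 CPM in E12.5 and 133, 131 and 126 CPM in E14.5. They were 174, 163 and 148 CPM in ISC and 166, 224 and 195 CPM in AE. E14.5 lies below each library of the other groups, and E12.5, ISC and AE overlap. The fall from E12.5 to E14.5 was 1.34-fold (log2 change -0.42 ± 0.11, adjusted p = 0.00695). AE was 1.5-fold above E14.5 (0.58 ± 0.11, adjusted p = 0.000308). ISC was 1.24-fold above E14.5 (0.31 ± 0.11, adjusted p = 0.0272), a call lost with DESeq2 (adjusted p = 0.0729), with relative log scaling (0.0750) and without any 1 of E14.5 replicates 1, 2 and 3 (0.0618, 0.0683 and 0.0904) or ISC replicates 1 and 2 (0.102 and 0.0668). AE against ISC was at the threshold (0.27 ± 0.11, adjusted p = 0.0488). That call was lost under 5 of 7 other settings, with adjusted p from 0.0096 to 0.604 over all 7, and without ISC replicate 2 (0.0983), ISC replicate 3 (0.103) or AE replicate 2 (0.151). ISC and E12.5 differed by a log2 change of -0.11 (interval -0.33 to 0.11) and AE and E12.5 by 0.16 (-0.06 to 0.38), neither past the test, with the second at adjusted p = 0.0232 without AE replicate 1. In order, the levels ran AE, E12.5, ISC and E14.5, and only the last stood clear of its neighbour in all libraries.

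Tcf7 encodes a factor that exists as full-length and shortened forms in other tissues, which gene counts do not separate. It read 35.7, 29.8 and 31.3 CPM in E12.5 and 12.3, 13.1 and 13.1 CPM in E14.5. In ISC it read 42.3, 36.1 and 50.2 CPM, and in AE 10.5, 8.90 and 8.22 CPM. The 4 groups do not overlap, and ISC and E12.5 lie high while E14.5 and AE lie low. Tcf7 fell 2.52-fold from E12.5 to E14.5 (log2 change -1.34 ± 0.14, adjusted p = 4.25e-06), rose 3.35-fold from E14.5 to ISC (1.75 ± 0.14, adjusted p = 1.10e-07) and fell 4.60-fold from ISC to AE (-2.20 ± 0.15, adjusted p = 2.11e-08). The high and low groups are also the groups with and without listed multiply aligned reads. Of 2575 stretches of 50 bases in the Tcf7 transcripts, 0 occur in transcripts of another gene. That search covered annotated transcripts and not the genome, and whatever follows the split was not tested by it. Within the split the differences were smaller, with ISC 1.33-fold above E12.5 (0.41 ± 0.14, adjusted p = 0.0160) and AE 1.37-fold below E14.5 (-0.46 ± 0.15, adjusted p = 0.0114). The first of these was lost without E12.5 replicate 2 (0.0664), E12.5 replicate 3 (0.0537) or ISC replicate 3 (0.104). All 10 crypt stem-cell markers listed were lower in AE than in ISC too, summing to 11411 to 12621 CPM in ISC and 1229 to 1571 in AE.

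Lef1 was the least abundant member in E12.5 and E14.5. It read 2.92, 3.82 and 3.12 CPM in E12.5 and 1.35, 1.31 and 0.703 CPM in E14.5. In ISC it read 3.74, 5.61 and 5.35 CPM and in AE 2.10, 1.8 and 4.23 CPM. E14.5 lies below every other library, while ISC overlaps with E12.5 and with AE through AE replicate 3. Lef1 fell 2.83-fold from E12.5 to E14.5 (log2 change -1.50 ± 0.32, adjusted p = 0.00145) and rose 4.25-fold from E14.5 to ISC (2.09 ± 0.32, adjusted p = 6.14e-05). AE stood 1.90-fold below ISC (-0.93 ± 0.32, adjusted p = 0.0198), a call lost with the 6 libraries alone (0.0553) and without ISC replicate 2 (0.0641), ISC replicate 3 (0.0605), AE replicate 1 (0.0785) or AE replicate 2 (0.0859). Each of these Lef1 changes crosses the split of multiply aligned reads, and whatever follows that split cannot be told apart from the group there. Within the split, AE was 2.23-fold above E14.5 (1.16 ± 0.34, adjusted p = 0.00645). ISC against E12.5, within the split as well, missed the threshold (0.59, interval -0.00 to 1.17, adjusted p = 0.0972). It passed the threshold with the 6 libraries alone (0.0414). AE against E12.5 also missed it (-0.34, interval -0.98 to 0.29), and passed it without AE replicate 3 (-0.70, adjusted p = 0.0476). These values rest on 119 to 285 counts per group.

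Tcf7 and Lef1 are T-cell genes as well, and markers of leukocytes were read beside them. The 23 markers, Bcl11b included, summed per library to 97.8 to 101 CPM (E12.5), 118 or more (E14.5), 143 to 175 (ISC) and 101 to 130 (AE). Bcl11b carried most of each sum, at 65.2, 97.0, 128 and 79.4 CPM on average. Of the 16 tested, 8 rose and 1 fell from E14.5 to ISC, and 6 rose and 3 fell from ISC to AE. Cd3e, a T-cell receptor subunit gene, read 0.0107 CPM (E12.5), 0.00831 (E14.5), 0.505 (ISC) and 2.28 (AE) on average. Its single AE libraries ran from 0.876 to 3.20 CPM, beside 1.8 to 4.23 CPM of Lef1. Cd3d was at 0 in E12.5, E14.5 and ISC, and the whole E12.5 group held 1 count of Cd3e beside 2637 of Tcf7 and 262 of Lef1. Of the 23 markers, 4 were at 0 counts in E12.5, but other markers were read there. E12.5 held 302 counts of Lck, 246 of Csf1r, 172 of Cd8a and 1543 of Cd68. Lck averaged 3.71, 2.91, 0.927 and 0.449 CPM in E12.5, E14.5, ISC and AE, lowest in AE, where Cd3e was highest. The part of leukocytes in the levels of Tcf7 and Lef1 was not tested in any group. Of the Lef1 transcript stretches, 13.7% are shared with other genes, so part of its annotated sequence is less certain than that of Tcf7 or Tcf7l2, which share 0. Gm43352, among those genes, overlaps 1208 exonic bases of Lef1 on the opposite strand and has no counts of its own. Ctnnb1 shares 12.3% of its stretches, with Ulk4.

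Ctnnb1 encodes beta-catenin, which serves both the Wnt signal and cell junctions. It read 933, 894 and 970 CPM in E12.5 and 881, 899 and 822 CPM in E14.5. In ISC it read 723, 696 and 747 CPM and in AE 889, 1052 and 892 CPM. ISC lies below every other library, and the other 3 groups overlap. Ctnnb1 was 1.29-fold lower in ISC than in E12.5 (log2 change -0.37 ± 0.11, adjusted p = 0.00662) and 1.31-fold higher in AE than in ISC (0.39 ± 0.11, adjusted p = 0.00490), the second not with upper-quartile scaling (0.19, adjusted p = 0.118). ISC against E14.5 was close to the threshold (-0.26 ± 0.11, adjusted p = 0.0428). It missed with the replicate block (0.0696) and without E14.5 replicates 1, 2 and 3 (0.113, 0.131 and 0.0550) or ISC replicates 1 and 2 (0.0832 and 0.123), each left out alone. E14.5 against E12.5 (-0.10, interval -0.31 to 0.10), AE against E14.5 (0.12, -0.08 to 0.33) and AE against E12.5 (0.02, -0.19 to 0.23) did not pass, and under upper-quartile scaling the last turned to -0.25 (adjusted p = 0.0373). Ulk4, which overlaps Ctnnb1 on the opposite strand, stayed between 0.343 and 10.3 CPM, and Gm15401, which overlaps Tcf7l1 likewise, between 0.109 and 4.04 CPM.

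Levels of different genes were compared per length, as shares of the summed counts per kilobase of the 4 Tcf/Lef genes, which library scaling cannot alter. Annotated exons covered 2625 bases for Tcf7, 3924 for Tcf7l1, 8775 for Tcf7l2 and 8788 for Lef1, and the longest single transcripts 2471, 3042, 3715 and 3656. On the exon scale E12.5 was a mixture of Tcf7l2 at 39.2% ± 0.624 (SD, n = 3), Tcf7l1 at 35.8% ± 0.647 and Tcf7 at 24.2% ± 0.672. E14.5 held 59.1% ± 0.875, 21.0% ± 0.474 and 19.4% ± 0.871 of the same genes. In ISC, Tcf7l2 at 52.1% ± 5.59 and Tcf7 at 45.9% ± 5.46 made up nearly the whole sum, with Tcf7l1 at 0.335% ± 0.158. In AE, Tcf7l2 alone made up 84.7% ± 2.98 and Tcf7 13.6% ± 3.08. Lef1 stayed between 0.327% and 1.93% in all libraries.

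The mean share of Tcf7l2 exceeded that of Tcf7 in ISC on each scale, by a margin that varied with the length used. With exon lengths Tcf7 exceeded Tcf7l2 in ISC replicate 3 (52.1% against 45.8%) and lay below it in replicates 1 and 2. With the longest transcript Tcf7l2 held 55.7% (E12.5), 74.0% (E14.5), 69.8% (ISC) and 91.7% (AE), and Tcf7 held 27.8% in ISC. The direction of each share from group to group was the same on the 2 scales for Tcf7, Tcf7l2 and the embryonic Tcf7l1. The summed level on the exon scale was 50.7 ± 3.44 CPM per kilobase (E12.5), 25.1 ± 0.545 (E14.5), 35.4 ± 2.10 (ISC) and 26.2 ± 2.98 (AE). On the longest-transcript scale it was 84.3, 47.3, 62.4 and 57.1.

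**Figure D3:**
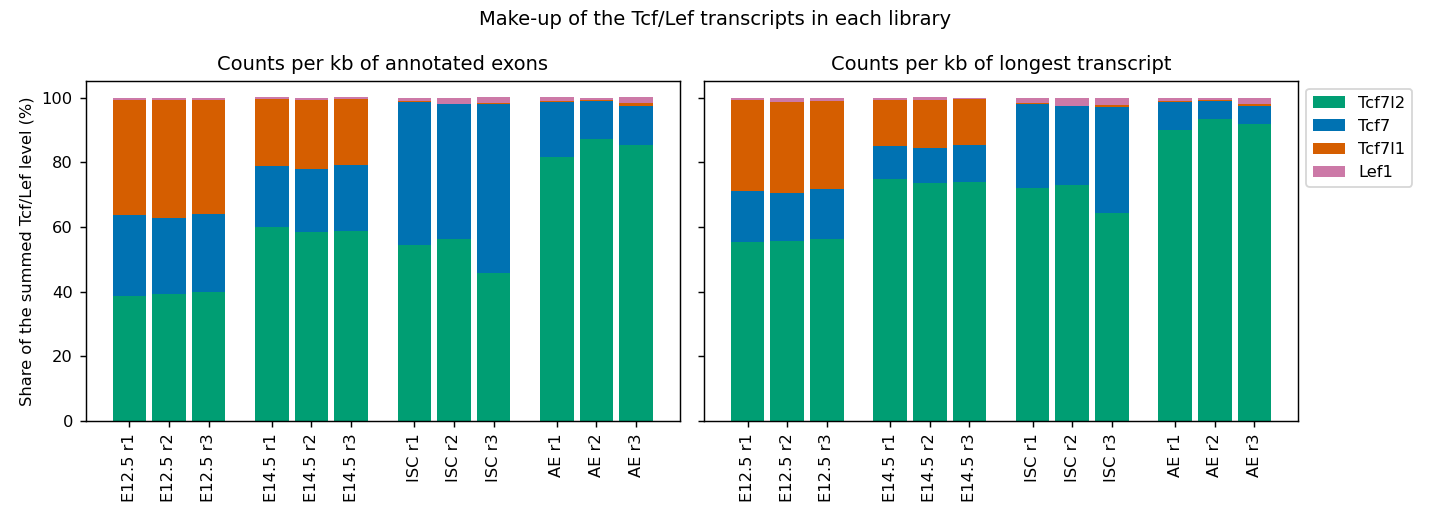
Share (%) of each Tcf/Lef gene in the summed level per length in every library (r1 to r3, replicates), per kilobase of annotated exons on the left and of the longest transcript on the right. Tcf7l1 takes 35.8% of the sum in E12.5 and 0.495% in AE on the left, and Tcf7l2 takes the largest share in AE on both sides.

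Ratios within a library, in which length cancels when groups are compared, gave the same picture. The log2 ratio of Tcf7 to Tcf7l2 per exon length was -0.69 ± 0.05 (E12.5), -1.60 ± 0.08 (E14.5), -0.18 ± 0.33 (ISC) and -2.65 ± 0.36 (AE), with no overlap between groups. That of Tcf7l1 to Tcf7l2 went from -0.13 ± 0.04 in E12.5 and -1.49 ± 0.05 in E14.5 to -7.31 ± 0.85 in ISC and -7.42 ± 0.66 in AE, where the adult groups overlap. The ratio of Tcf7l2 to Ctnnb1 moved little, from -3.49 ± 0.04 in E14.5 to -2.92 ± 0.15 in ISC.

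Around these genes, lists of the pathway were counted in the same fit. For every list, the background is the share of all genes called higher and lower, which was 23.6% and 25.6% from E12.5 to E14.5, 30.2% and 30.6% from E14.5 to ISC, and 32.6% and 35.2% from ISC to AE. Of 20 tested Tcf/Lef target genes, 18 rose and 2 fell from E14.5 to ISC (median log2 change 1.86, all genes 0.00), and by edgeR 0 rose (1 by DESeq2) and 19 fell from ISC to AE (median -2.52, all genes -0.05). From E12.5 to E14.5, 8 rose and 7 fell (median -0.01). Axin2, a feedback inhibitor gene, averaged 26.3, 57.7, 627 and 109 CPM in E12.5, E14.5, ISC and AE, and Lgr5, the receptor gene behind the ISC gate, 24.8, 81.8, 508 and 23.3 CPM. Ascl2, a stem-cell factor gene, averaged 2.33, 10.5, 114 and 8.05 CPM, and Sp5, a zinc-finger target gene, 1.56, 0.513, 11.5 and 6.82 CPM. The adhesion receptor gene Cd44 averaged 1.77, 15.6, 474 and 53.6 CPM. Mmp7, a protease gene of Paneth cells, averaged 39.1 CPM in ISC and 29.1 in AE, beside 10 Paneth markers that summed to 2359 to 4113 CPM in ISC and 2969 to 6996 in AE. ISC and several of these targets are tied by the sort on Lgr5-EGFP.

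Genes of the nuclear coactivator list were mostly called lower in the embryonic step and from ISC to AE. The list also held Hdac1, a histone deacetylase gene, so its counts are not those of coactivators alone. Hdac1 was the 1 gene that rose from E12.5 to E14.5 (log2 change 0.30, adjusted p = 0.0287). Of 16, 12 fell and 1 rose from E12.5 to E14.5 (median -0.44, with 25.6% of all genes lower), 5 went each way from E14.5 to ISC (median 0.08), close to the shares over all genes, and 13 fell and 1 rose from ISC to AE (median -0.70, with 35.2% of all genes lower, or -0.62 with the gene at 0 counts set to a floor of 3 counts). Pygo1, which encodes a PHD-finger partner of Bcl9, averaged 15.7, 1.31 and 0.0182 CPM in E12.5, E14.5 and ISC, and was at 0 counts in AE, where the floor is 0.0606 CPM. Bcl9l, a Bcl9 relative, was highest in ISC at 81.6 CPM against 24.5 in E14.5 and 48.3 in AE, while Bcl9 ran 254, 150, 122 and 64.9 CPM through the 4 groups. Parp1, a DNA-repair enzyme gene also listed as a cofactor, fell from 208 to 67.0 CPM between ISC and AE (adjusted p = 3.03e-07).

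The list of Groucho/TLE corepressors, the partners of Tcf/Lef in the absence of a signal, was split. It also held Ctbp1, Ctbp2 and Hdac2, which are not Groucho/TLE genes, so its counts are not those of that family alone. Of 9, 1 rose and 2 fell from E12.5 to E14.5, 2 rose and 5 fell from E14.5 to ISC, and 2 rose and 2 fell from ISC to AE (medians -0.17, -0.31 and 0.39). The 2 that fell from ISC to AE were Ctbp2 (log2 change -0.55, adjusted p = 0.00036) and Hdac2 (-0.84, adjusted p = 0.000158). Tle3 fell from 110 to 53.7 CPM between E12.5 and E14.5 and stood at 84.8 in ISC and 76.1 in AE. Aes, a short family member that lacks the long form's corepressor end, rose from 61.6 CPM in ISC to 166 CPM in AE (adjusted p = 3.80e-07), as Tle4 did from 87.9 to 172 CPM (adjusted p = 5.80e-06). Tle2 fell from 7.27 CPM in E14.5 to 1.2 CPM in ISC (adjusted p = 2.98e-05), and Tle1 averaged 35.8, 27.8, 40.7 and 53.3 CPM with adjusted p of 0.271, 0.0901 and 0.212 over these 3 steps.

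The list of the destruction complex, which breaks beta-catenin down, also held genes that act on the complex from outside. Dvl1, Dvl2, Dvl3, Tnks and Tnks2 are among these, so counts and medians of the list are not those of the complex alone. The list had 4 of 20 genes up and 9 down from E12.5 to E14.5, and 3 up and 10 down from E14.5 to ISC. From ISC to AE, 4 were up and 5 down (medians -0.38, -0.35 and 0.01 over the 3 steps). Tnks and Dvl2 were among those down from E12.5 to E14.5 and from E14.5 to ISC. All genes were called up and down at 23.6% and 25.6%, 30.2% and 30.6%, and 32.6% and 35.2% in these steps, so the genes up in the first step and those called in the last were no more frequent than that. The scaffold gene Apc averaged 422, 250, 364 and 361 CPM in E12.5, E14.5, ISC and AE. Axin2, given above among the target genes, is counted in this list too. It rose from 57.7 to 627 CPM between E14.5 and ISC (adjusted p = 5.75e-11) and stood at 109 CPM in AE. Csnk1e, a casein kinase gene, fell from 39.2 to 10.6 CPM between ISC and AE (adjusted p = 5.92e-09). Amer2, a membrane adaptor of the complex, averaged 14.3 CPM (E12.5), 2.25 (E14.5), 0.118 (ISC) and 0.324 (AE).

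Antagonists of beta-catenin or Tcf/Lef had 2 of 14 tested up and 6 down, 4 up and 8 down, and 3 up and 6 down over the same steps (medians -0.42, -0.58 and -0.58). Ctnnbip1, whose product keeps beta-catenin from Tcf, was lowest in ISC at 14.1 CPM and rose to 34.8 CPM in AE (adjusted p = 2.22e-06). Sox9, a crypt transcription factor gene that is also among the targets, fell from 305 to 35.9 CPM between ISC and AE (adjusted p = 5.79e-10). Mdfi, a binding protein of Tcf/Lef and of Axin, averaged 12.7, 7.75, 0.938 and 0.0381 CPM, and Nkd1, a feedback inhibitor gene, 4.17, 3.21, 8.41 and 1.26 CPM.

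Junction partners, which hold the other pool of beta-catenin, had 6 of 16 tested up and 6 down, 7 up and 5 down, and 8 up and 2 down (medians 0.15, 0.17 and 0.30, the last 0.45 with genes at 0 counts set to the floor). Cdh1, encoding E-cadherin, averaged 740, 1023, 1618 and 1760 CPM in E12.5, E14.5, ISC and AE. Cdh1 rose in the first 2 steps (adjusted p = 0.00376 and 0.000172), where Ctnnb1 did not, and was not called from ISC to AE (log2 change 0.12, adjusted p = 0.357), where Ctnnb1 rose. Cdh3, encoding P-cadherin, averaged 89.2, 27.9 and 0.184 CPM and was at 0 counts in AE, and Ctnnd2, a delta-catenin gene, 93.1, 8.99 and 0.0501 CPM and 0 counts in AE. Pkp1, a desmosomal plakophilin gene, averaged 0.197, 0.0506, 81.9 and 47.4 CPM.

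**Figure D4:**
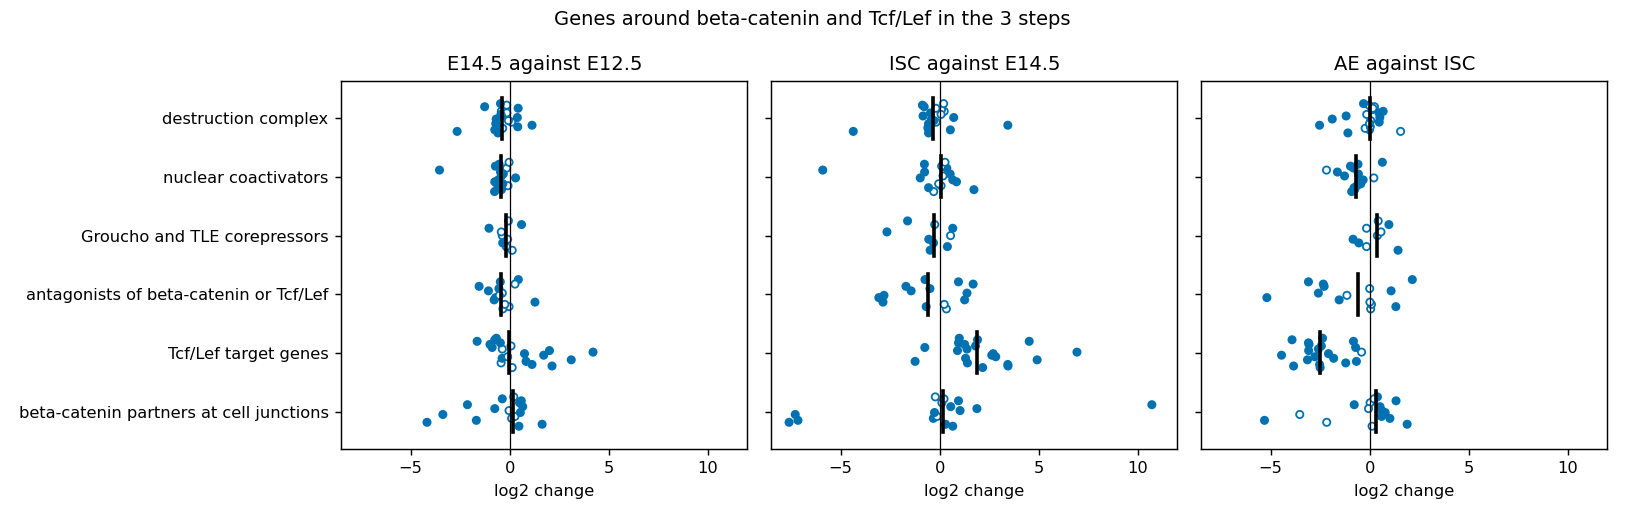
Fitted log2 change of the tested genes of each list in the 3 steps along the course; filled points passed an adjusted p of 0.05, and black bars are list medians. Target genes centre on 1.86 from E14.5 to ISC and on -2.52 from ISC to AE, while the medians of the other lists lie between -0.70 and 0.39.

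The genes whose course was most like that of each member were found by the smallest root mean square difference of centred log2 CPM over the 12 libraries, among 11000 genes of at least 5 CPM on average. For Tcf7l1 they were Spock3, Aff2 and Ebf4, at differences of 0.309, 0.413 and 0.490 and with Pearson r from 0.993 to 0.996. Spock3, a secreted proteoglycan gene, averaged 17.1, 3.4, 0.0145 and 0.0381 CPM. For Tcf7 they included Mycl1 and Frmd4a, at 0.211 and 0.247. Mycl1, a Myc family gene, averaged 35.5, 12.7, 53.4 and 13 CPM. For Lef1 they included Syne2 and Mll2, at 0.304 and 0.400. For Tcf7l2 they were Pkp4, Ubac2 and Gab1, at 0.103, 0.105 and 0.111. For Ctnnb1 they included Cyfip1 and Atxn7l3b, at 0.0778 and 0.0905. Genes that move little, such as Tcf7l2 and Ctnnb1, are close to many others on this measure, and all libraries of a group share their stage and sort.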

How the data were processed

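RNA was measured in 12 mouse libraries by sequencing of amplified cDNA. The deposited values are raw counts per gene symbol, 1 file per library, with 5 closing entries that name no gene. They entered neither library sizes nor tests: reads outside annotated genes made up 33.4% to 58.1% of reads listed, ambiguous reads 0.531% to 1.00% and multiply aligned reads 0% to 5.96%. Per the submitters' processing notes, tools included HTSeq 0.6.1p1 and STAR 2.3.1z13, on mm9. Neither annotation nor strand setting is stated there, so reads of overlapping antisense genes could not be told apart.

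Groups and replicate numbers follow the titles. Replicates differed by more than sampling noise (chi-square per degree of freedom of 3.38 or more). Pairs of replicates were at 12.5 to 17 in E12.5, 3.38 to 9.7 in E14.5, 19.7 to 49.7 in ISC and 26.6 to 138 in AE. AE replicate 1 stood farthest, at 138 from replicate 2 and 125 from replicate 3. The design text calls the replicates biological triplicates. Counts were fitted with edgeR 4.0.16 in R 4.3.3 (filterByExpr, TMM factors from 0.696 to 1.16, quasi-likelihood F tests on all 12 libraries, 1 coefficient per group), with p-values adjusted over 15342 genes at a threshold of 0.05. The fitting script was tested on simulated counts with known changes. Standard errors were taken as the log2 change over the root of F, and intervals are normal 95% intervals. These intervals are narrower than the F test implies, so their 95% is nominal. Alternatives were DESeq2 1.42.0, limma 3.58.1 with voom, 2 other scalings, no filter, the 6 libraries alone, a replicate block and each library left out. Lengths come from GENCODE M21 and promoters from RefSeq, both on GRCm38, a later build than mm9, so no coordinates of the counts were used. The fitted log2 change has a prior count of 0.125, the likeness measure 2, and ratios have 0.5 added to each count. Depth limits Tcf7l1 in adults and Lef1 throughout, and floors reflect counting error alone, as amplified reads can copy 1 molecule.

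The 5 genes, the lists and the tests were chosen with earlier results of these data known. The naming rule took up to 3 genes per list by largest change among genes called and at 5 CPM or more, a set of always nameable pathway genes, and the 3 most alike genes of each member, some of which are not reported here. Markers of epithelium, Paneth, goblet, enteroendocrine and endothelial cells and of enteric neurons were listed too. Exact tests of the shares and ratios are not reported here.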

Additional observations from a re-analysis of the deposited data

Results flagged for a closer look

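The step from E12.5 to E14.5 and the step from ISC to AE were compared by a contrast of the same edgeR fit that was chosen after the data were seen. Libraries with listed multiply aligned reads are the reference of both steps, so a constant log2 shift along that split drops out of this difference. Over all genes tested, 54.6% differed between the steps. Tcf7 fell in both steps and by more in the adult, with log2 changes of -1.34 and -2.20 and a difference of -0.87 ± 0.20 (SE, adjusted p = 0.00234). Tcf7l1 changed by -1.78 in the embryo and by -0.16, not past the test, in the adult, where it rests on 28 and 21 counts, a difference of 1.62 ± 0.46 (adjusted p = 0.00855). Tcf7l2 went from -0.42 to 0.27, a difference of 0.69 ± 0.16 (adjusted p = 0.00231). Ctnnb1 went from -0.10 to 0.39, a difference of 0.49 ± 0.15 (adjusted p = 0.0126), and with upper-quartile scaling the difference was 0.31 (adjusted p = 0.0839). For Lef1 the steps were -1.50 and -0.93 and their difference of 0.57 ± 0.45 did not pass (adjusted p = 0.304).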

How the results depend on the processing

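Of 30 changes of the 5 genes, 18 kept direction and call under all their alternatives and 12 did not under at least 1, over 389 alternative fits; the cause was not tested. Upper-quartile scaling moved the median of all genes from -0.15 to -0.42 in AE against E12.5, from -0.12 to -0.37 in AE against E14.5 and from -0.05 to -0.25 in AE against ISC, where calls went from 5002 higher and 5395 lower to 4247 and 6359. In the other AE comparisons they went from 5896 and 6697 to 5146 and 7570 (E12.5) and from 5632 and 6368 to 4792 and 7319 (E14.5). With it, Tcf7l2 read 0.07 and Ctnnb1 0.19 in AE against ISC, Ctnnb1 -0.12 in AE against E14.5, and Tcf7l2 -0.11 and Ctnnb1 -0.25 in AE against E12.5. DESeq2 and relative log scaling each gave 0.25 for Tcf7l2 in ISC against E14.5. For Tcf7l2 in AE against ISC, voom gave 0.26, no filter 0.25 and the 6 libraries 0.30. The 6 libraries gave Lef1 -0.88 in AE against ISC and 0.59 in ISC against E12.5. Tcf7l1 in AE against ISC has no value with the 6 libraries, where it missed the filter.

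Leaving out each library gave 0.26 to 0.34 for Tcf7l2 and -0.33 to -0.24 for Ctnnb1 in ISC against E14.5. In AE against ISC it gave -0.50 to 0.33 for Tcf7l1 (0.33 without ISC replicate 3, 0.23 without AE replicate 1), 0.19 to 0.37 for Tcf7l2 and -1.27 to -0.71 for Lef1. In ISC against E12.5 it gave 0.26 to 0.53 for Tcf7. In AE against E12.5 it gave 0.06 to 0.26 for Tcf7l2, -0.70 to -0.14 for Lef1 and -0.05 to 0.09 for Ctnnb1 (-0.01 without E12.5 replicate 2, -0.05 without AE replicate 2).

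Deviations of same-numbered libraries correlated at -0.08 to 0.08, and the main fit did not treat replicate numbers as pairs. In ISC against E12.5, 6 of 6 libraries correlated best with their own number. The same held for 4 of 6 in AE against ISC and 3 of 6 in E14.5 against E12.5. It held for 0 of 6 in ISC against E14.5, AE against E14.5 and AE against E12.5. These values do not settle whether replicate numbers mark pairs. With the replicate block Ctnnb1 in ISC against E14.5 read -0.26 (adjusted p = 0.0696) and Tcf7l2 in AE against ISC 0.27 (adjusted p = 0.0682), and no other call of the 5 genes changed.

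Shares moved with the length. With the longest transcript, E12.5, E14.5, ISC and AE held 15.5%, 11%, 27.8% and 6.65% Tcf7 and 55.7%, 74.0%, 69.8% and 91.7% Tcf7l2. Tcf7l1 held 27.7% and 14.4% in the embryonic groups, and Lef1 1.07% in E12.5 and 2.16% in ISC. As shares of counts the same groups held 11.5%, 7.78%, 20.5% and 4.53% Tcf7 and 62.1%, 79.0%, 77.0% and 93.9% Tcf7l2. Tcf7l1 held 25.3%, 12.6% and, in AE, 0.245%, and Lef1 1.18%, 0.676% and 2.35% in E12.5, E14.5 and ISC. Among counts of pathway genes 277 stayed within 1.5 times and 11 did not. Depth limits Tcf7l1 in the adult groups and Lef1.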
